A study of Mus musculus with 5 samples.

Results

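Splenic red pulp macrophages engulf aged red blood cells and return their iron to the circulation. Haem oxygenase 1 opens the haem ring, biliverdin reductases act on the product, ferritin stores the iron that is freed, and ferroportin exports it. The transcription factor SPIC is required for these macrophages and is induced by haem, which relieves the repression of its gene by BACH1. The mRNAs of both ferritin chains and of ferroportin carry an iron-responsive element, a hairpin that iron regulatory proteins bind when iron is low.

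RNA-seq of tissue labelled as MC38 tumour was read for 10 genes of this programme: *Spic*, *Slc40a1*, *Hmox1*, *Vcam1*, *Cd163*, *Slc11a1*, *Blvrb*, *Fth1*, *Ftl1* and *Hpgd*. They were chosen by name with earlier results of these data known, by a rule that sets no threshold on measured values, and all 10 were found among the 54446 entries of the count table, of which 54113 had a name. MC38 is a mouse colon carcinoma line, here inoculated into C57BL/6 mice. By the labels, 3 libraries are of tumours from mice kept at 30 °C and 2 of tumours from mice kept at 4 °C, in each case for 2 weeks, and no other treatment or allele distinguished the groups. Nothing in the labels says whether the samples came from separate cages or days, so the p-values measure the spread between these 5 samples, which may in part be technical.

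The 5 libraries held 16191708 to 20320525 counts on named genes, and the members had between 299 and 60099 counts in each library. Levels are given as CPM, that is, counts scaled to a library total of 1000000. The tissue label was compared with marker lists. The 10 epithelial and carcinoma genes summed to 19.4 to 132 CPM, with *Krt8*, a keratin, at 3.17 to 59.7 CPM, whereas the 9 erythroblast genes found in the table summed to 15704 to 42163 CPM and the 6 B cell genes to 1135 to 3471 CPM. *Tlx1*, a transcription factor needed for spleen development, which was singled out after its values had been seen, was at 10.5 to 30.2 CPM. These levels go against the tumour label, and it cannot be told from them how much tumour the samples held, so they are called libraries below. Genes of pancreatic acinar cells took 27.4% of the counts of 30 °C replicate 2, 0.267% of those of 4 °C replicate 2 and at most 0.0083% of the others. These counts are part of the total that CPM divide by, and 7 of 10 members had their lowest CPM in 30 °C replicate 2. The tests used the trimmed mean of M-values (TMM), a scaling that gave that library a factor of 0.738 against 1.03 to 1.13 in the others, and 2 of 10 members were lowest there after it. Fewer macrophages and less RNA per macrophage cannot be told apart in such bulk samples.

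No member was called between 4 °C and 30 °C, the comparison the study was designed for. All 10 passed the filter on low counts, and 0 of 10 were called by edgeR's quasi-likelihood test at an adjusted p under 0.05, where 0% of the 16133 genes tested were called. At an unadjusted p under 0.05, 0 of 10 members and 6.76% of all genes passed. DESeq2 called 0 of 10 members and 0.731% of all genes. The log2 fold changes of 4 °C over 30 °C were above 0 for 4 members and below 0 for 6, with a median of -0.10 against 0.00637 over all genes. That median was 0.166 without 30 °C replicate 1 and 0.09 without 4 °C replicate 1. In TMM-scaled CPM the ratio between the highest and lowest 30 °C library exceeded that of the larger to the smaller group mean in all 10 members. The share of all genes for which this holds was not counted, so it is no trait shown to be particular to the members.

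**Figure D1:**
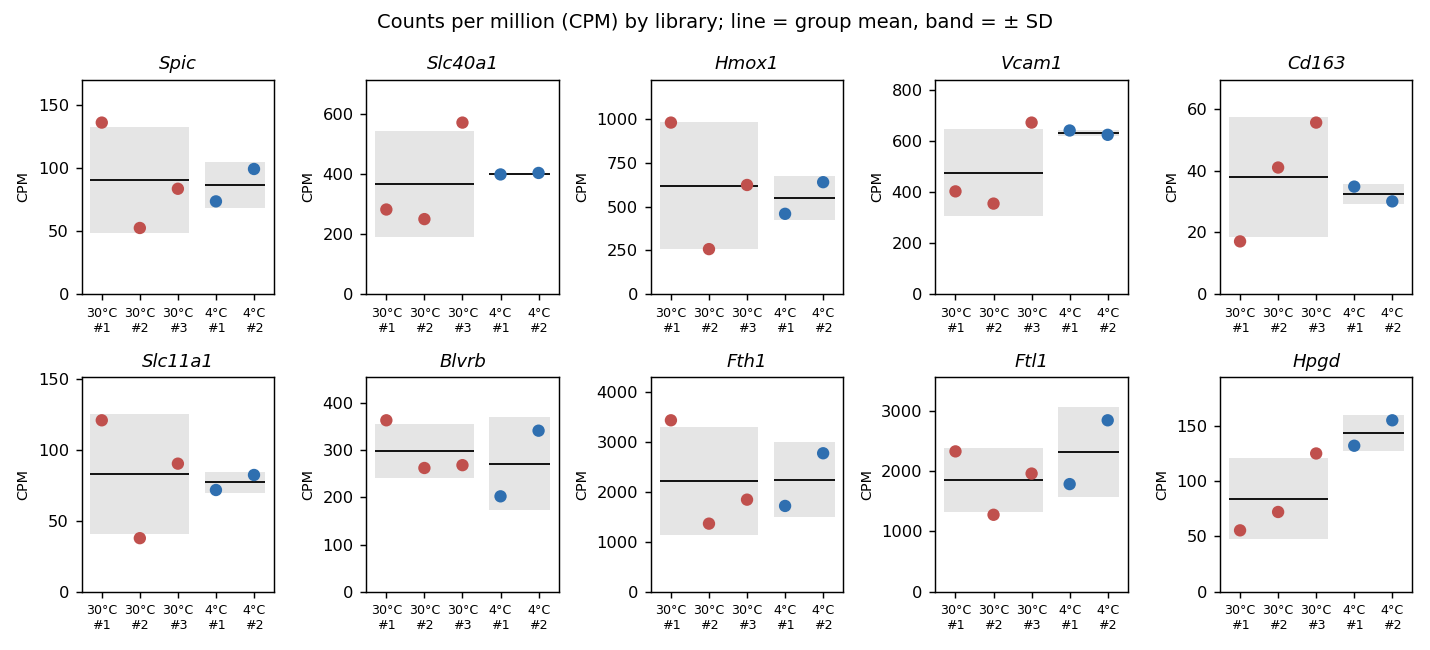
CPM of the 10 members in each of the 5 libraries (red, 30 °C; blue, 4 °C), with the group mean as a line and ± SD as a band. Only the *Hpgd* panel shows both 4 °C libraries (132 and 155 CPM) above all 3 libraries at 30 °C.

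*Spic*, the transcription factor of red pulp macrophages (GRCm38 10:88674772-88685015, minus strand), was at 136, 52.4 and 83.5 CPM in 30 °C replicates 1 to 3 and at 73.5 and 99.2 CPM in 4 °C replicates 1 and 2. The 2 cold libraries lay inside the range of the warm ones, whose highest was replicate 1. The group means were 90.5 ± 42.1 CPM (SD, n = 3) and 86.3 ± 18.2 CPM (SD, n = 2). The log2 fold change was -0.14 (SE 0.31, adjusted p 0.945 by edgeR).

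*Vcam1* (3:116109949-116129688, minus strand) encodes an adhesion molecule present on red pulp macrophages and on activated endothelium. It was at 403, 355 and 673 CPM at 30 °C and at 642 and 625 CPM at 4 °C. Both cold libraries lay near the highest warm one. Its log2 fold change was 0.31 (SE 0.24, adjusted p 0.846), and was above 0 with every library left out in turn.

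*Cd163* (6:124304656-124330527, plus strand), which encodes the receptor for haemoglobin bound to haptoglobin, was at 17.1, 41.1 and 55.7 CPM at 30 °C and at 34.9 and 30.1 CPM at 4 °C. The warm libraries enclosed the cold ones, with replicate 1 lowest. Its log2 fold change was -0.39 (SE 0.51, adjusted p 0.907). *Slc11a1* (1:74375195-74386062, plus strand) encodes NRAMP1, which moves iron and manganese out of the phagosome. It was at 121, 37.8 and 90.4 CPM at 30 °C and at 71.8 and 82.4 CPM at 4 °C, with a log2 fold change of -0.15 (SE 0.33, adjusted p 0.944). Here replicate 1 was the highest of the warm libraries, the reverse of *Cd163*.

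*Hmox1* (8:75093621-75100589, plus strand), encoding haem oxygenase 1, was at 981, 257 and 624 CPM at 30 °C and at 459 and 640 CPM at 4 °C. The means were 621 ± 362 CPM (SD, n = 3) and 549 ± 128 CPM (SD, n = 2), and the log2 fold change was -0.21 (SE 0.42, adjusted p 0.937). Warm replicates 1 and 2 enclosed all other libraries. *Blvrb* (7:27447978-27466144, plus strand), which encodes biliverdin reductase B and is also abundant in erythroid cells, was at 363, 262 and 268 CPM at 30 °C and at 202 and 341 CPM at 4 °C. Its log2 fold change was -0.27 (SE 0.30, adjusted p 0.887), with cold replicate 1 the lowest of all 5 libraries and cold replicate 2 within the range of the warm ones.

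*Fth1* (19:9980598-9985098, plus strand) encodes the ferritin heavy chain, which oxidises iron for storage, and *Ftl1* (7:45457944-45459884, minus strand) the light chain. *Fth1* was at 3437, 1365 and 1846 CPM at 30 °C and at 1720 and 2776 CPM at 4 °C, with a log2 fold change of -0.058 (SE 0.36, adjusted p 0.98). *Ftl1* was at 2329, 1277 and 1961 CPM at 30 °C and at 1786 and 2845 CPM at 4 °C, with a log2 fold change of 0.23 (SE 0.26, adjusted p 0.885). The groups overlapped for both chains. Ferritin genes have near-identical processed pseudogenes, so reads may be split between copies. Counts on the pseudogene *Ftl1-ps1* were 0.00935 to 0.0115 of those on *Ftl1*.

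*Slc40a1* (1:45908068-45926523, minus strand), encoding ferroportin, the known cellular iron exporter, was at 282, 250 and 572 CPM at 30 °C and at 399 and 404 CPM at 4 °C. The 2 cold libraries were close to each other and lay between warm replicates 1 and 3. The means were 368 ± 177 CPM (SD, n = 3) and 402 ± 3.73 CPM (SD, n = 2), with a log2 fold change of 0.041 (SE 0.29, adjusted p 0.982).

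*Hpgd* (8:56294585-56321043, plus strand) encodes the enzyme that inactivates prostaglandins, and is expressed by red pulp macrophages. It was at 55.5, 72.1 and 125 CPM at 30 °C and at 132 and 155 CPM at 4 °C. Both cold libraries were above all warm ones, though warm replicate 3 was near the lower cold one. The means were 84.2 ± 36.4 CPM (SD, n = 3) and 143 ± 16.6 CPM (SD, n = 2). The log2 fold change was 0.65 (SE 0.33, adjusted p 0.776, unadjusted p 0.0949 by edgeR). It was the 1 member of 10 whose groups did not overlap in CPM, against 16.4% of all genes tested, and the 1 of 10 in TMM-scaled CPM, against 23.3%.

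**Figure D2:**
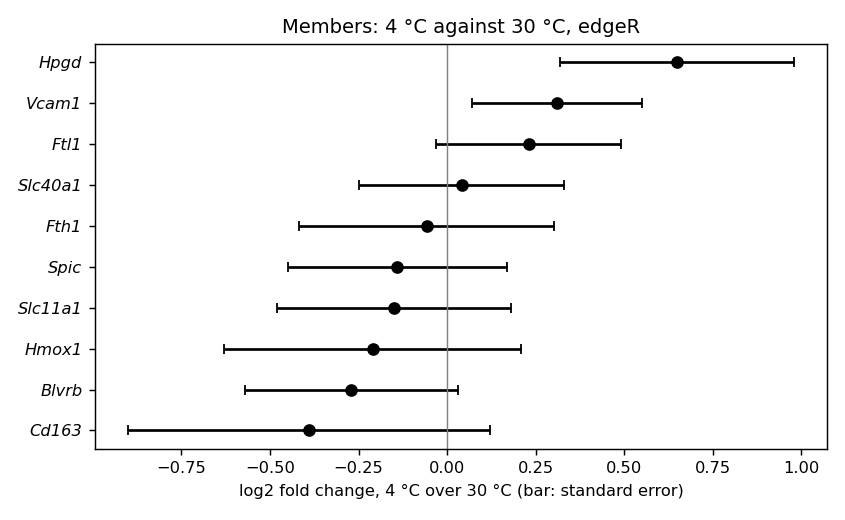
Log2 fold change of 4 °C over 30 °C for each member (points, edgeR), with bars of 1 standard error on either side. The estimates run from -0.39 for *Cd163* to 0.65 for *Hpgd*, and none passed the adjusted threshold.

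The iron-responsive elements show what the ferritin chains and ferroportin share beyond their names. The letters CNNNNNCAGTGN were searched in annotated 5′ UTRs of GENCODE M21 on GRCm38, on the transcript strand. A full stem meant 5 paired bases on each side of the loop, with G-T counted as a pair. Of 20899 genes with a 5′ UTR, 12.3% held the letters and 0.148% held them with a full stem. Among the 10 members 4 held the letters, and 3 of those had a full stem. *Spic* was the exception, with 3 of 5 pairs across an exon junction. The element is known in the ferritin and ferroportin mRNAs, so the 3 full stems were fixed in advance. Their number is no result about the members. The 3 sites are shown as the transcript reads, 5′ to 3′, with the 6 loop bases in capitals, all in the 5′ UTR. Their coordinates are chr19:9982732-9982760 (plus strand), chr7:45459779-45459807 (minus strand) and chr1:45925465-45925493 (minus strand) in the order listed.
Fth1: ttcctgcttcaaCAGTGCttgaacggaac
Ftl1: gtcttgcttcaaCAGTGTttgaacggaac
Slc40a1: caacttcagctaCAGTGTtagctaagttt
The ferritin sites shared 26 of 29 bases, and *Slc40a1* shared 13 of 29 with each. These counts include the C and CAGTG that the search fixed in every site. An element in the 5′ UTR acts on translation, which RNA-seq does not measure. Promoter windows covering 250 bases before the start site (RefSeq, GRCm38.p6) were at hand for 7 members, in 9 windows, and not for *Hmox1*, *Slc40a1* or *Vcam1*. On either strand, the antioxidant response element TGACNNNGC occurred in 0 of 9 windows and in 10.2% of all 32851 windows. So few windows cannot tell 0 from that share. Sequence farther from the start site was not searched, so a lack of the element in these genes is not shown. GAGGAA, the core bound by SPIC and PU.1, occurred in the windows of *Slc11a1* and *Hpgd* and in 23.3% of all windows.

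Levels between genes were compared as CPM per kb of principal transcript. *Ftl1* had a mean of 2107 CPM per kb and *Fth1* one of 1492, and their ranges over the 5 libraries overlapped, while the lowest *Fth1* library (914) was above the highest of *Hmox1* (625). *Hmox1* followed at 377 and *Blvrb* at 279, again with overlapping ranges. The lowest library of *Blvrb* (196) was just above the highest of *Vcam1* (194). *Vcam1* was at 156, *Slc40a1* at 113, *Hpgd* at 64.1, *Spic* at 50.4 and *Slc11a1* at 34.9 CPM per kb, each overlapping the next in this order. *Cd163* was at 8.12 CPM per kb, and its highest library (12.6) was below the lowest of *Slc11a1* (16.3). With the length of all exons together, *Hpgd* moved above *Vcam1* and *Slc40a1*, and the rest of the order was the same, but the ranges of *Fth1* (lowest 393) and *Hmox1* (highest 560) then overlapped, as did those of *Blvrb* (lowest 72.5) and *Vcam1* (highest 75.8), and the lowest library of *Slc11a1* and the highest of *Cd163* were both at 10.2.

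Within the 30 °C group the members split in opposite directions. In TMM-scaled CPM, *Spic*, *Hmox1*, *Slc11a1* and *Fth1* were highest of all 5 libraries in 30 °C replicate 1, whereas *Slc40a1*, *Vcam1*, *Cd163* and *Hpgd* were lowest there. *Blvrb* and *Ftl1* did neither. These sets were formed after the values had been seen and carry no test. The share of all genes that were highest or lowest in that library was not counted, so the split is not shown to be particular to the members.

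**Figure D3:**
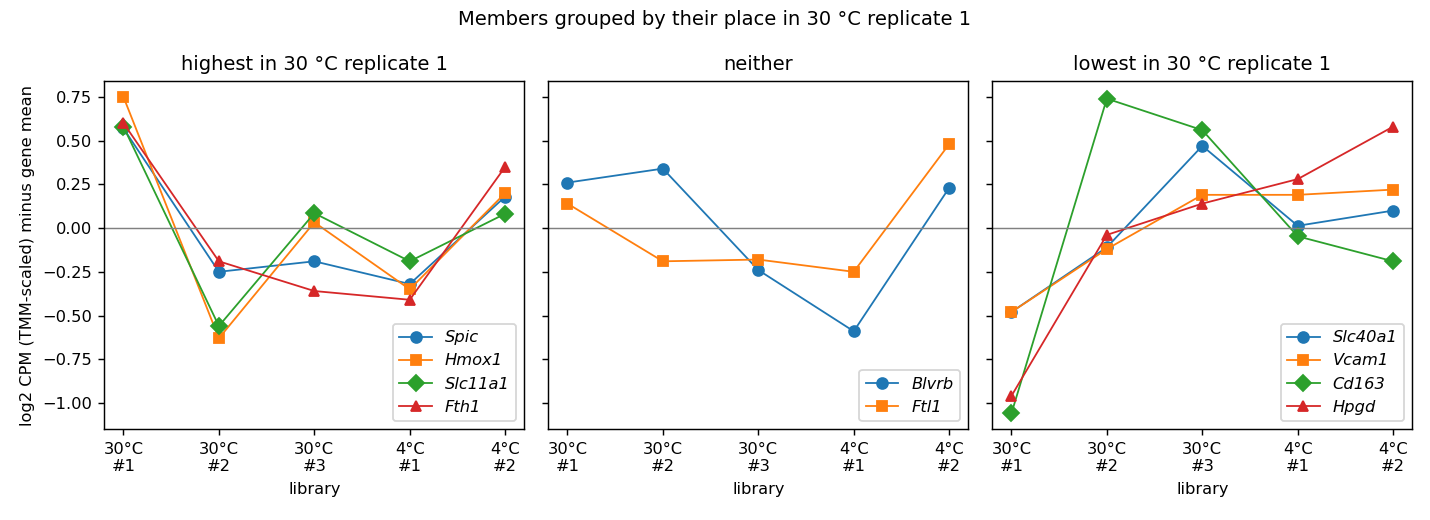
Log2 TMM-scaled CPM of each member minus its mean over the 5 libraries, with members placed by whether 30 °C replicate 1 was their highest library, their lowest or neither. The 4 members on the left peak in that library and the 4 on the right have their minimum there.

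Ratios of counts within a library need no scaling. They restate the split, since sets formed by their place in 30 °C replicate 1 vary less within a set than between sets by construction. Over the 5 libraries the SD of the log2 ratio was 0.13 to 0.34 for the 6 pairs among *Spic*, *Hmox1*, *Slc11a1* and *Fth1*, 0.17 to 0.61 for the 6 pairs among *Slc40a1*, *Vcam1*, *Cd163* and *Hpgd*, and 0.61 to 1.20 for the 16 pairs that mix the sets. *Hmox1* over *Slc11a1* was 8.1, 6.8 and 6.91 at 30 °C and 6.39 and 7.76 at 4 °C. *Fth1* over *Spic* was 25.3, 26.1 and 22.1 at 30 °C and 23.4 and 28 at 4 °C. These pairs held nearly constant while each gene varied.

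By contrast *Hmox1* over *Slc40a1* was 3.48, 1.03 and 1.09 at 30 °C and 1.15 and 1.58 at 4 °C. *Cd163* over *Spic* was 0.126, 0.784 and 0.666 at 30 °C and 0.475 and 0.304 at 4 °C. The first ratio was highest and the second lowest in 30 °C replicate 1. *Fth1* over *Ftl1* was 1.48, 1.07 and 0.941 at 30 °C and 0.963 and 0.976 at 4 °C, highest in the same library.

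**Figure D4:**
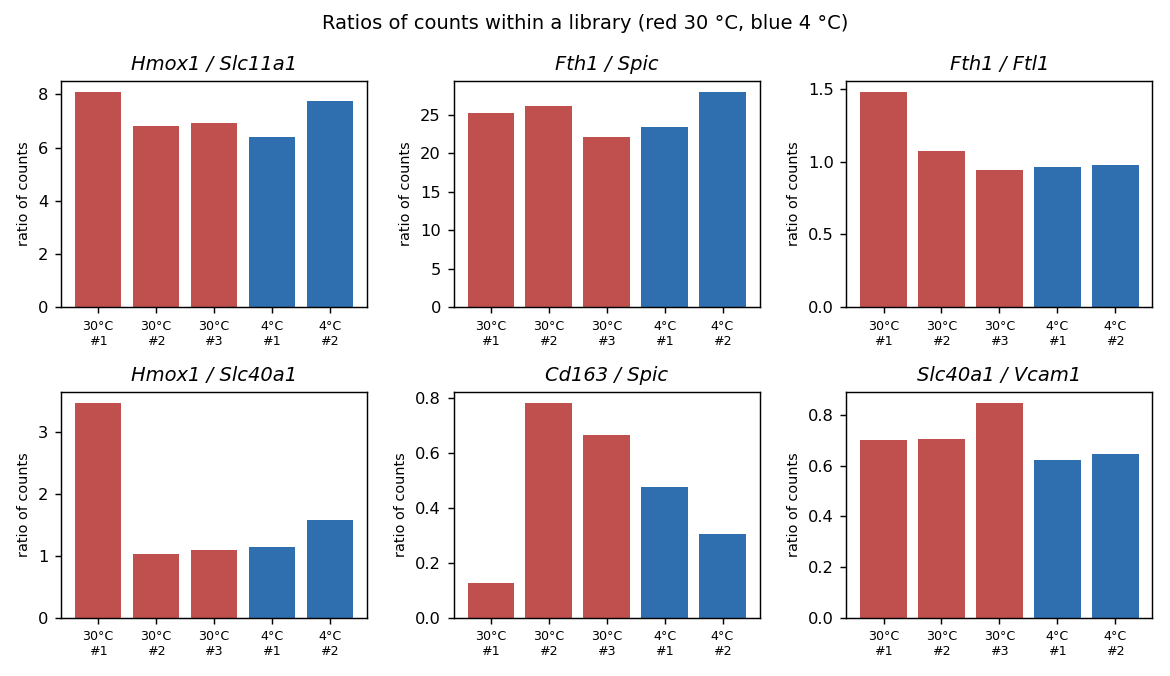
Ratios of counts of 2 members within each library (bars from 0; red, 30 °C; blue, 4 °C). *Hmox1* over *Slc40a1* reaches 3.48 in 30 °C replicate 1 and 1.03 to 1.58 elsewhere, whereas *Hmox1* over *Slc11a1* stays between 6.39 and 8.1.

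Markers of other cells also stood apart in 30 °C replicate 1. The 8 neutrophil genes summed to 13028 CPM there, against 6097 and 3185 CPM in the other warm libraries and 2616 and 4003 CPM in the cold ones, with *S100a9* the highest on average. The 6 genes of marginal zone macrophages summed to 1865 CPM there and to 344 to 610 CPM elsewhere, led by *Marco*, a scavenger receptor, at 1071 CPM against 72.5 to 215 CPM. *Cd5l* and *Nr1h3* were also highest there, at 537 and 145 CPM. *Cd209b*, *Siglec1* and *Timd4* were not, at 15.6, 45.6 and 50.3 CPM there and up to 28.2, 80.6 and 86.5 CPM elsewhere. In TMM-scaled CPM *Cd209b* and *Timd4* were lowest in 30 °C replicate 1. The B cell genes summed to 1135 CPM in that library and 1175 CPM in warm replicate 2, and to 2774 to 3471 CPM in the other 3. The most abundant gene was *Hbb-bs*, a beta globin, in the erythroblast list, *Cd79a*, of the B cell receptor, in the B cell list, and *Ctrb1*, a digestive protease, in the acinar list. The 6 endothelial genes, led by *Pecam1*, summed to 253 to 540 CPM and the 9 genes of fibroblasts and splenic mesenchyme, led by *Col1a2*, to 282 to 982 CPM. Of the genes in these cell type lists 0 were called by edgeR in the test without covariates. DESeq2 called *Timd4* of the marginal zone list and *Cxcl13* of the mesenchyme list. By edgeR the log2 fold change of *Cxcl13* was 0.84 (SE 0.16, adjusted p 0.689). None of the neutrophil, marginal zone or B cell genes was at 0 in all libraries. The part of these cells in the split of the members was not tested. *Clec4f*, which defines Kupffer cells, was at 0 in all 5 libraries, and the 3 Kupffer genes, led by *Folr2*, summed to 0.744 to 1.03 CPM.

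Of 18 other macrophage genes listed, all 18 were tested and 0 were called, 14 log2 fold changes were above 0 and the median was 0.19. Without 4 °C replicate 2 only 6 were above 0 and the median was -0.0985. The smallest p belonged to *Irf8*, a transcription factor of the myeloid lineage, with a log2 fold change of 0.41 (SE 0.27, adjusted p 0.829), followed by *Csf1r*, the receptor for the macrophage growth factor CSF1, at 0.27 (SE 0.22, adjusted p 0.856), and *C1qc*, a chain of complement C1q, at 0.35 (SE 0.30, adjusted p 0.862).

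Of 30 other genes of iron and haem handling 27 were tested, 0 were called and 20 had log2 fold changes below 0, with a median of -0.29. Without 30 °C replicate 1, 15 were below 0. At an unadjusted p under 0.05, 4 of 27 passed, all lower at 4 °C, against 6.76% of all genes. In TMM-scaled CPM the groups of 7 of 27 did not overlap, 6 lower and 1 higher at 4 °C, a share near the 23.3% of all genes. *Ftmt*, mitochondrial ferritin, was at 0 throughout, and *Hamp*, encoding hepcidin, and *Hjv* were too low to test.

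*Slc39a8*, encoding a zinc transporter that also carries iron, was at 23.5, 21.3 and 22.4 CPM at 30 °C and at 12.0 and 12.2 CPM at 4 °C. In TMM-scaled CPM, where the acinar counts of 30 °C replicate 2 weigh less, the warm libraries were at 21.9, 29.0 and 19.9 and the cold ones at 11.1 and 11.8, so the groups were apart on both scales, with more spread at 30 °C. Its log2 fold change was -1.04 (SE 0.24, edgeR adjusted p 0.689). DESeq2 called it and no other gene of this list. *Tfr2*, transferrin receptor 2, was at 29.2, 20.9 and 27.7 CPM against 16.5 and 17.7 CPM, with a log2 fold change of -0.72 (SE 0.19, adjusted p 0.689). *Steap3*, the endosomal ferrireductase, had a log2 fold change of -0.68 (SE 0.22, adjusted p 0.692).

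*Tfrc*, transferrin receptor 1, which is abundant in erythroid precursors, was at 906, 426 and 364 CPM at 30 °C and at 293 and 241 CPM at 4 °C. It was named after its values had been seen. Its log2 fold change was -1.20 (SE 0.40, adjusted p 0.702), and the groups did not overlap.

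**Figure D5:**
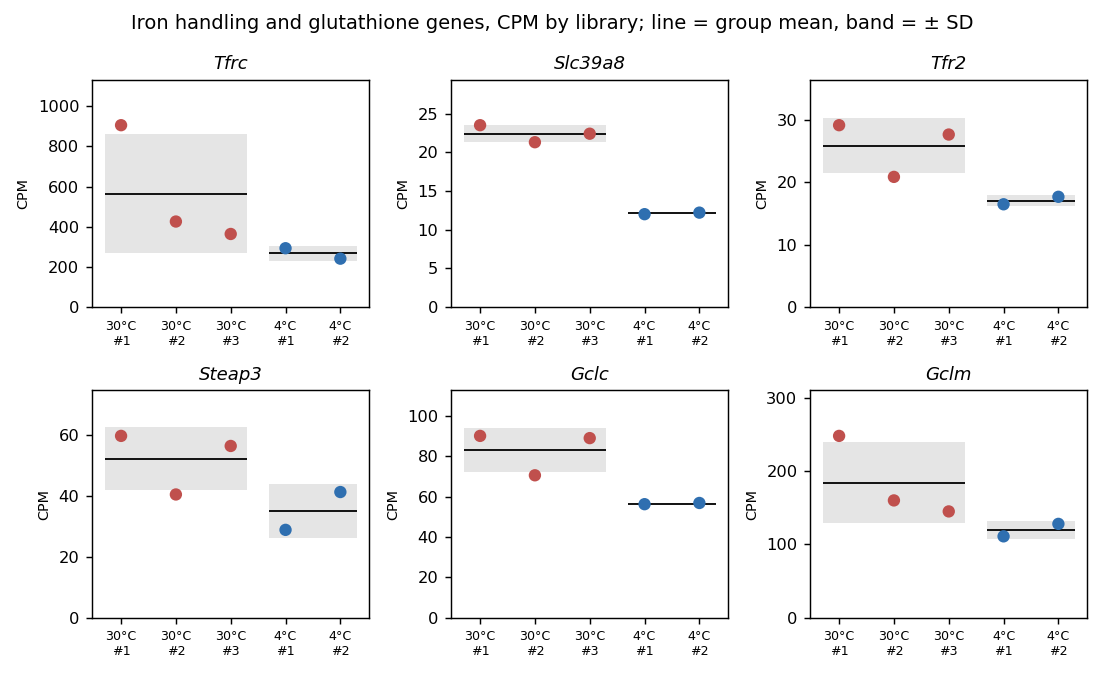
CPM of the iron genes *Tfrc*, *Slc39a8*, *Tfr2* and *Steap3* and of the glutathione synthesis genes *Gclc* and *Gclm* in each library, with the group mean as a line and ± SD as a band. The cold libraries of *Slc39a8* sit at 12.0 and 12.2 CPM, below all 3 warm ones at 21.3 to 23.5 CPM.

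The 13 genes around BACH1 and NRF2, the repressor and the activator that compete at *Hmox1* and at ferritin genes, included 10 with log2 fold changes below 0 and a median of -0.28, with 0 called. *Gclc*, the catalytic subunit of the enzyme that starts glutathione synthesis, was at 90.0, 70.5 and 88.9 CPM at 30 °C and at 56.2 and 56.8 CPM at 4 °C. Its log2 fold change was -0.68 (SE 0.17, adjusted p 0.689). *Gclm*, the modifier subunit, had a log2 fold change of -0.76 (SE 0.29, adjusted p 0.71), and *Mafg*, a small MAF protein that pairs with NRF2 and BACH1, one of -0.50 (SE 0.23, adjusted p 0.755). In TMM-scaled CPM the groups of 5 of 13 did not overlap, against 23.3% of all genes, 4 lower and 1 higher at 4 °C. The higher was *Maff*, another small MAF protein, named after its values had been seen, with a log2 fold change of 0.60 (SE 0.29, adjusted p 0.765).

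Of the 6 marginal zone genes 0 were called by edgeR, 2 had log2 fold changes above 0 and 4 below, and the median was -0.28, or 0.37 without 30 °C replicate 1. *Marco* had a log2 fold change of -1.03 (SE 1.13, adjusted p 0.885). *Cd5l*, a protein secreted by macrophages, also named after its values had been seen, was at 537, 149 and 221 CPM at 30 °C and at 119 and 158 CPM at 4 °C, with a log2 fold change of -1.19 (SE 0.47, adjusted p 0.723). *Timd4*, a receptor for phosphatidylserine named in the same way, was at 50.3, 35.0 and 57.3 CPM at 30 °C and at 81.2 and 86.5 CPM at 4 °C, with a log2 fold change of 0.72 (SE 0.16, edgeR adjusted p 0.689). DESeq2 called it and no other gene of the list.

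The genes most like *Spic* over the 5 libraries were sought among 14555 tested genes with a mean of at least 1 CPM that were not members. Likeness was the root mean square difference in log2 TMM-scaled CPM, each gene centred on its own mean. *Scamp5* came first at 0.0375, then *Pgam1*, a glycolytic enzyme, at 0.0435, *Ccnyl1* at 0.0446, *Rab31*, a small GTPase of vesicle traffic, at 0.0468 and *Arhgap10* at 0.0523. The median over all genes was 0.434 and a flat profile gave 0.336. The nearest member was *Fth1* at 0.119 and the farthest *Cd163* at 0.943. For *Hmox1* the nearest were *Nlgn2* at 0.0465, *Ppia*, encoding cyclophilin A, at 0.0636, *Cdon* at 0.0666, *Sh3pxd2b* at 0.0882 and *Plin2*, a coat protein of lipid droplets, at 0.103.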

How the data were processed

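The deposited table holds whole-number read counts for each gene symbol and library. By the study's methods, the authors made them with featureCounts 2.0.0 on the Gencode vM19 annotation. The submitters' processing notes name fastp, HISAT, RSEM and GRCm38 with no versions. The roles of these tools, strand use and multi-mapping are not given in the sources used here. Unnamed entries (333, up to 0.017% of counts) were left out, and 27 entries had a date as their name and could not be assigned. Where a symbol was repeated (97 symbols), the entry with the highest mean count was used.

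Counts were analysed in R 4.3.3 with edgeR 4.0.16: filterByExpr, TMM scaling, and a robust quasi-likelihood F-test without covariates on all 5 libraries, with Benjamini-Hochberg adjustment over 16133 genes and a threshold of 0.05. SE is the absolute log2 fold change divided by the square root of F. The Wald test of DESeq2 1.42.0, other scalings and filters, and leaving out each library were alternatives. Scripts were tested on simulated counts. Log2 CPM used a prior count of 2, and 3 counts, the floor, equal 0.148 to 0.185 CPM. Coordinates and UTRs are from GENCODE M21 on GRCm38.

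The members and lists were chosen with earlier results of these data known. Named genes are all members, the 3 smallest p of the iron, macrophage and BACH1/NRF2 lists, the most abundant gene of each cell type list and those at 0, and the 5 nearest to *Spic* and to *Hmox1*. The other marginal zone genes and *Cxcl13* were named after their values had been seen. Ratios, motifs and the sets of members were chosen after values were seen.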

Additional observations from a re-analysis of the deposited data

How the results depend on the processing

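Genes called numbered 0 in the edgeR test, 118 with DESeq2 (26 higher and 92 lower at 4 °C), 8 with total count scaling, 44 with the replicate block and 1090 at an unadjusted p under 0.05; the count was 0 with RLE or upper-quartile scaling, other filters, no robust estimation, acinar genes removed or any library left out. Members called were 0 in every setting. At an unadjusted edgeR p under 0.05, *Hpgd* passed with total count scaling (p 0.0498) and with the replicate block (p 0.0152). Without 30 °C replicate 3 it passed too (p 0.0421), and without 30 °C replicate 1 *Cd163* passed (p 0.00935). Of all genes, 669, 977, 1477 and 913 passed in these settings, of 16133, 16133, 15786 and 15838 tested. The members' median log2 fold change was -0.01116 with the replicate block and ran from -0.3203 to 0.1658 with a library left out. Labels number replicates 1 and 2 in both groups without saying that they pair, so the replicate block was no part of the test. Of the 44 genes called with the block, 16 were acinar genes and 1, *Ltf*, was a neutrophil gene. Deviations from the group means correlated at -0.255 for replicate 1 and 0.259 for replicate 2. They correlated at 0.616 for 30 °C replicate 3 with 4 °C replicate 1, which share no number. With 2 cold libraries the deviations of one mirror those of the other, so these correlations cannot decide on pairing. Under the replicate block *Cd163* turned to 0.04176. Total count scaling, which shifts the median of all genes from 0.00637 to 0.109, turned *Fth1* to 0.02036.

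Leaving out a library turned the sign of 7 members. The ranges were -0.4264 to 0.1774 for *Spic* (0.0889 without 4 °C replicate 1), -0.1538 to 0.3386 for *Slc40a1*, -0.5255 to 0.2109 for *Hmox1*, -0.4098 to 0.1535 for *Slc11a1*, -0.7528 to 0.09113 for *Blvrb*, -0.5017 to 0.2959 for *Fth1* and -0.2005 to 0.5541 for *Ftl1*. *Vcam1* and *Hpgd* were above 0 in every setting. *Cd163* was -0.7719 without 30 °C replicate 1 (edgeR adjusted p 0.7955). The causes were not tested. With 3 libraries against 2, an exact two-sided rank-sum test cannot give a p below 0.2. The lowest member count, 299, has a counting SD of 5.78%, so counting error was small beside the spread between libraries.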
